A study of Arabidopsis thaliana with 8 samples.

Results

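The 10 genes described here carry out nitrate uptake and its reduction in Arabidopsis thaliana, and they were taken by locus identifier from the 33557 loci of each deposited table. They are the nitrate transporters NRT1.1 (AT1G12110, named NPF6.3 in the tables) and NRT2.1 (AT1G08090) with its partner NRT3.1 (AT5G50200), the nitrate reductases NIA1 (AT1G77760) and NIA2 (AT1G37130), and the nitrite reductase NIR1 (AT2G15620). The cofactor gene UPM1 (AT5G40850), the reductant gene G6PD3 (AT1G24280) and the regulators LBD37 (AT5G67420) and HRS1 (AT1G13300) complete the group.

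Whole seedlings were collected 7 days after germination on diluted Murashige and Skoog medium, following 3 days of cold treatment at 4 °C, and were kept at 22 °C under 16 h of light and 8 h of darkness. Total RNA was sequenced from the wild type Col-0, from the single mutants dek3-2 and dek4-2, and from dd-2, which combines dek3-2 with dek4-2, with 2 libraries per genotype that the design text calls biological replicates. DEK3 and DEK4 encode DEK-domain proteins, which bind chromatin, and the study asked which transcripts differ when one or both are mutated. One allele of each gene was used, and no treatment was applied to any group, so that nitrogen supply was the same medium throughout.

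Nitrate enters root cells through dual-affinity and high-affinity transporters, is reduced to nitrite by nitrate reductase in the cytosol, and nitrite is reduced to ammonium by nitrite reductase in plastids. The first enzyme needs a molybdenum cofactor and the second needs siroheme, ferredoxin and, in roots, NADPH from the plastid pentose phosphate pathway. Nitrate itself induces many of these genes within minutes, together with the repressors LBD37 and HRS1, whereas ammonium and other reduced nitrogen repress the high-affinity uptake genes. Murashige and Skoog medium supplies nitrogen as both nitrate and ammonium.

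Expression was deposited as FPKM, fragment counts scaled to transcript length and to library size, a unit that allows levels of different genes to be set side by side. The libraries had similar depth, between 0.799 and 1.12 times their mean as read from the step size of low values. DEK3 stood at 48.3 and 70.2 FPKM in the Col-0 libraries, at 16.7 and 13.3 FPKM in dek3-2 and at 19.9 and 17.5 FPKM in the double mutant, whereas the dek4-2 libraries held 47.3 and 80.7 FPKM. DEK4 stood at 23.7 and 35.2 FPKM in Col-0, at 10.3 and 18.4 FPKM in dek4-2, at 16.3 and 15.4 FPKM in the double mutant, and at 38.0 and 27.0 FPKM in dek3-2. Each mutated transcript was therefore below both Col-0 libraries in the genotypes labelled as carrying its mutation, without being absent. Chloroplast-encoded transcripts held between 1.19% and 1.43% of all FPKM in the libraries numbered 1 and between 1.79% and 1.87% in those numbered 2. The summed level of 8 seed-protein transcripts was 1480 FPKM in the first dek3-2 library and 118 FPKM in the second dd-2 library, against 2.56 to 18.7 FPKM elsewhere, and in the first dek4-2 library 24.8% of loci were under 0.1 FPKM, against 16.1% to 18.8% in the others.

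The 250 bases upstream of the annotated transcript start are shown for 5 of the genes. They are the 3 reductase genes, on which the comparisons turn, the uptake gene NRT2.1, a known target of the HRS1 family, and HRS1 itself. Sequences were read from the RefSeq genome TAIR10.1 and run 5′ to 3′ on the strand of the gene. Capitals mark the letters GAATC or, on the other strand, GATTC, a core recognised by repressors of the HRS1 family, and the palindrome GAATATTC known for the same family.
NIA1, chr1:29239485-29239734, minus strand: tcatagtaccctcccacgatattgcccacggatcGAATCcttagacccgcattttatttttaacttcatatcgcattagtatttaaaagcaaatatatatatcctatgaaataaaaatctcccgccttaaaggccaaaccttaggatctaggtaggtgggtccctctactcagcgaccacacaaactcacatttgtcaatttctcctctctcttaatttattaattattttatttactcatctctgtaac
NIA2, chr1:14158202-14158451, plus strand: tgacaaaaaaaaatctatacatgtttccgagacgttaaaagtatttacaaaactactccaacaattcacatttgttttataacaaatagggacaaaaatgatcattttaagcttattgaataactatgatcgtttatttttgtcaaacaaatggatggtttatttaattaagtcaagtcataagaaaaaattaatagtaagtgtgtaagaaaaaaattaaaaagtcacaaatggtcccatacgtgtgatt
NIR1, chr2:6810145-6810394, plus strand: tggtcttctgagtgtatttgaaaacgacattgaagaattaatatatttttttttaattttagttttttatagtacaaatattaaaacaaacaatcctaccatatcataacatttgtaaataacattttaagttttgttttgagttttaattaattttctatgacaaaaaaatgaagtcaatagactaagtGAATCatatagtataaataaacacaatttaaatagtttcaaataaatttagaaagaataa
NRT2.1, chr1:2523773-2524022, plus strand: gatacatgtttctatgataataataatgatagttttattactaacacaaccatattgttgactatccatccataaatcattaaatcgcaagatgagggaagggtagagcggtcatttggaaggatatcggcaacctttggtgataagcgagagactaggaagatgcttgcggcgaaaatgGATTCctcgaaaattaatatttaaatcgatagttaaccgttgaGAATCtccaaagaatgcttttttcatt
HRS1, chr1:4556628-4556877, plus strand: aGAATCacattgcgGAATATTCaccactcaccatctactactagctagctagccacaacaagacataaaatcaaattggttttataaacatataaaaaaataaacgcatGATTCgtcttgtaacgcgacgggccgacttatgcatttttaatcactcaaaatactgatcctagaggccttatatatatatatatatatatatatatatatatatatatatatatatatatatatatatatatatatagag

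Of the 10 genes, 7 had GAATC on either strand of this window, against 38.8% of 27443 protein-coding promoters of the same length. The genes without it were NIA2, NRT1.1 and UPM1, so that the minor and the major nitrate reductase gene differed in this letter match. NIA1 held it at bases -216 to -212, counted back from the start, and NIR1 at bases -60 to -56. NRT2.1 and HRS1 each held 2 matches. The palindrome GAATATTC was found in HRS1 alone among the 10 genes, at bases -236 to -229, and in 0.86% of all promoters. TGACG, the core bound by TGA factors such as TGA1 and TGA4, was searched on both strands and was found in LBD37 alone, against 18.6% of all promoters. These are matches of letters in one window and say nothing of binding.

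**Figure D1:**
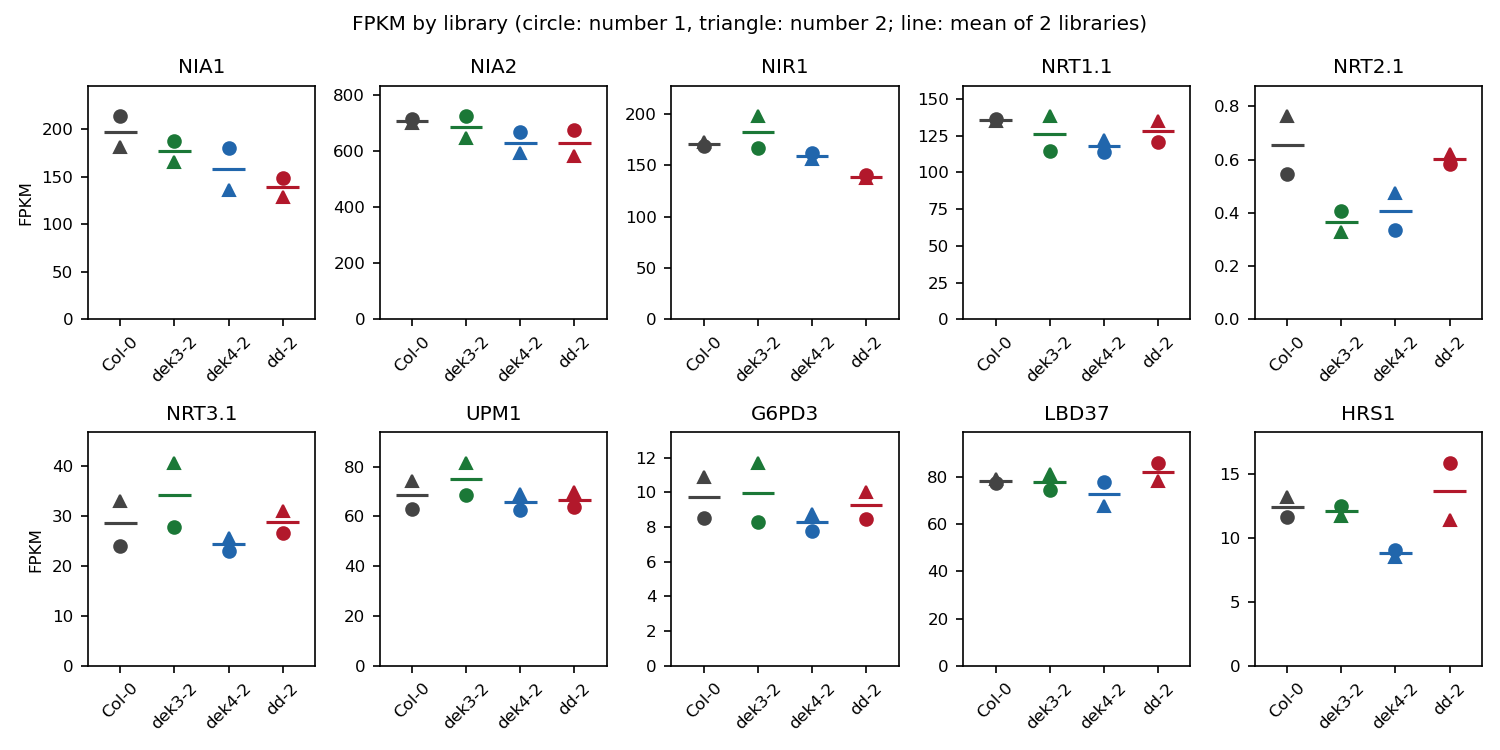
Level of each of the 10 nitrate genes in FPKM (vertical axis, starting at 0, its scale differing between panels) in the 2 libraries of each genotype. Circles are libraries numbered 1, triangles those numbered 2, and lines the mean of both. NIA1 and NIR1 had their lowest means in dd-2, HRS1 had its lowest in dek4-2, and NRT2.1 was below 1 FPKM in all 8 libraries.

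Levels spanned a wide range, and NIA2 was the most abundant of the 10 transcripts in every library. Its mean over the 8 libraries was 662 FPKM, with a range of 583 to 724 FPKM. NIA1 and NIR1 followed at 168 and 163 FPKM, NRT1.1 at 127 FPKM, LBD37 at 77.7 FPKM and UPM1 at 69.1 FPKM. NRT3.1 at 28.9 FPKM, HRS1 at 11.8 FPKM and G6PD3 at 9.30 FPKM were lower. NRT2.1 was the lowest at 0.51 FPKM, estimated at 19.1 to 50.6 fragments per library. The ranges of NIA1, NIR1 and NRT1.1 over the libraries overlapped. Within every library NIR1 was above NRT1.1, whereas the place of NIA1 beside them changed between libraries. The ranges of LBD37 and UPM1 and of HRS1 and G6PD3 also overlapped, and neither pair kept 1 order in every library.

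The test used throughout was limma on log2(FPKM + 1), with 1 mean per genotype, all 8 libraries in 1 model and p-values adjusted by Benjamini-Hochberg over the 19017 genes that averaged 1 FPKM or more. A gene was called at an adjusted p below 0.05. Of the 10 nitrate genes 9 were tested and NRT2.1 missed the level filter. None of the 9 was called by limma in any of the 6 comparisons made. In dek3-2 against Col-0, where 0.0421% of all genes were called, 0 of the 9 had an unadjusted p below 0.05, against 3.44% of all genes. In dek4-2, where 0.021% of all genes were called, 1 of the 9 had such a p, against 1.97% of all genes. In dd-2, where 0.252% of all genes were called, 2 of the 9 had such a p, against 18.6% of all genes. All 3 mutants were set against the same Col-0 libraries, so these comparisons are not independent of each other.

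The median difference over the 9 genes was -0.01 on the log2 scale for dek3-2, -0.20 for dek4-2 and -0.06 for dd-2. Over all genes tested, the corresponding medians were 0.04, 0.00 and 0.08. In dek4-2, 9 of the 9 genes had a difference below 0, against 48.8% of all genes, and in dd-2 there were 6 of 9, against 34% of all genes. In dek3-2 the count was 5 of 9, against 35.2% of all genes. Without the second Col-0 library the counts below 0 were 7 of 9 in dek4-2, 4 of 9 in dd-2 and 3 of 9 in dek3-2. Without the first they were 9 of 9, 7 of 9 and 6 of 9 in the same order.

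**Figure D2:**
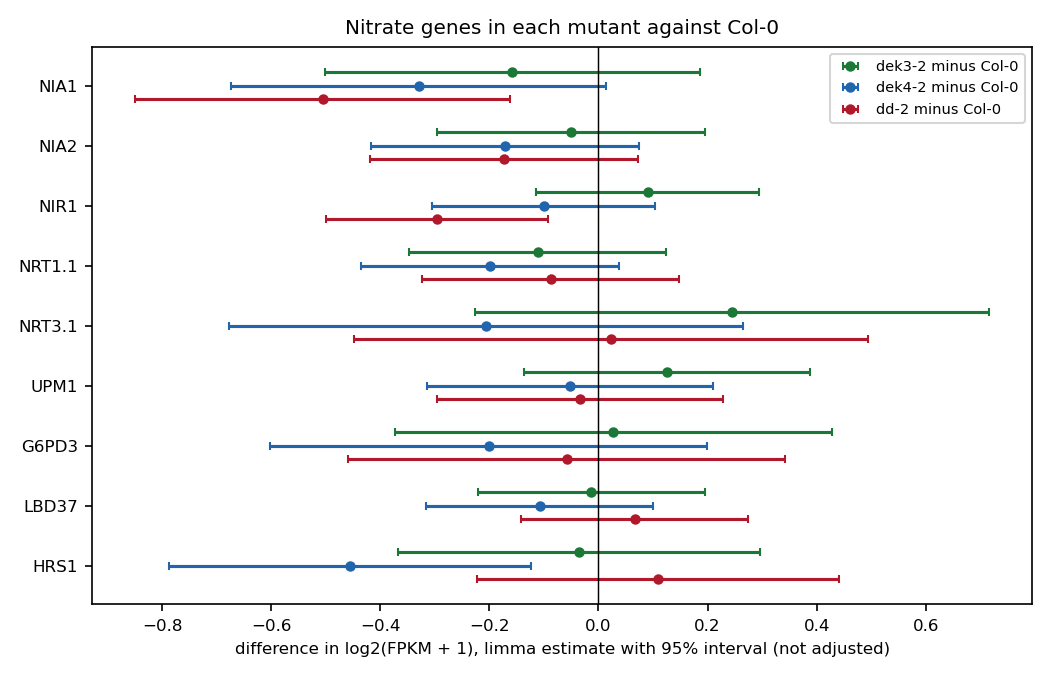
Difference of each mutant from Col-0 in log2(FPKM + 1) for the 9 tested genes (horizontal axis), as the limma estimate with its unadjusted 95% interval. Green is dek3-2, blue dek4-2 and red dd-2, each from 2 libraries against the same 2 Col-0 libraries. The intervals of NIA1 and NIR1 in dd-2 and of HRS1 in dek4-2 lay below 0, and no difference passed the adjusted threshold.

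NIA1 encodes the less abundant of the nitrate reductases and lies on chromosome 1 at 29235803 to 29239445 of the deposited TAIR10 coordinates, on the minus strand, with 4 exons in the reference annotation. Its level was 214 and 182 FPKM in Col-0, 188 and 166 FPKM in dek3-2, 181 and 136 FPKM in dek4-2, and 149 and 129 FPKM in dd-2. Both dd-2 libraries and both dek4-2 libraries were below both Col-0 libraries, while dek3-2 overlapped Col-0. The dd-2 mean of 139 ± 13.9 FPKM (SD, n = 2) was 70.2% of the Col-0 mean of 198 ± 22.5 FPKM (SD, n = 2). This difference was -0.51 on the log2 scale (SE 0.149, 95% interval -0.85 to -0.16). Its unadjusted p was 0.00946 and its adjusted p 0.153 by limma. It was not called in this model, which has no term for library number. With such a term added, an alternative that also raised the calls over all genes, its adjusted p was 0.0347 by limma. The share of the Col-0 level was 69.6% between the libraries numbered 1 and 71.0% between those numbered 2. The difference was -0.16 in dek3-2 and -0.33 in dek4-2, and what was left of the dd-2 difference beyond their sum was -0.02 (interaction term, SE 0.211, adjusted p = 1 by limma).

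NIA2, which provides most nitrate reductase activity in Arabidopsis, lies on chromosome 1 at 14158527 to 14161938, on the plus strand. It stood at 713 and 701 FPKM in Col-0, 724 and 645 FPKM in dek3-2, 667 and 592 FPKM in dek4-2, and 674 and 583 FPKM in dd-2. Both libraries of dek4-2 and of dd-2 were below both Col-0 libraries, but the libraries of each mutant lay further from each other than the higher of them lay from Col-0. The differences were -0.05 for dek3-2, -0.17 for dek4-2 and -0.17 for dd-2 (SE 0.107, adjusted p = 0.396 for dd-2 by limma).

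The share of NIA1 in the summed level of both nitrate reductase transcripts was 21.8% ± 1.74 for Col-0, 20.5% ± 0.0889 for dek3-2, 20.0% ± 1.85 for dek4-2 and 18.1% ± 0.0499 for dd-2 (SD, n = 2 each). In dd-2 the share was 18.1% in each library, below the lowest of the other 6 libraries at 18.7%. The sum itself was 905 ± 31.0 FPKM in Col-0 and 767 ± 78.9 FPKM in dd-2, with 861 ± 70.6 FPKM in dek3-2 and 788 ± 85.3 FPKM in dek4-2. With 2 libraries a group, an exact permutation test on such a value cannot reach the threshold, and none was made.

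NIR1, the only nitrite reductase gene of Arabidopsis, lies on chromosome 2 at 6810476 to 6812939, on the plus strand, with 4 exons. Its level was 169 and 172 FPKM in Col-0, 167 and 197 FPKM in dek3-2, 162 and 156 FPKM in dek4-2, and 140 and 137 FPKM in dd-2. Both dd-2 libraries were below the 6 libraries of the other genotypes. The dd-2 mean was 81.3% of the Col-0 mean, a log2 difference of -0.30 (SE 0.089, 95% interval -0.50 to -0.09), with an unadjusted p of 0.00999 and an adjusted p of 0.155 by limma. Its share of the Col-0 level was 82.9% between the libraries numbered 1 and 79.8% between those numbered 2. The single mutants differed from Col-0 by 0.09 in dek3-2 and -0.10 in dek4-2, and the interaction was -0.29 (unadjusted p = 0.0516, adjusted p = 1 by limma). The summed nitrate reductase level was 5.31 ± 0.262 times that of NIR1 for Col-0, 4.78 ± 0.950 for dek3-2, 4.95 ± 0.409 for dek4-2 and 5.53 ± 0.499 for dd-2 (SD, n = 2 each), and these ranges overlapped.

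In dd-2, 4 of the 9 tested genes had both libraries below both Col-0 libraries, against 15.3% of all genes, and 0 of 9 had both above, against 38% of all genes. They were NIA1, NIA2, NIR1 and NRT1.1, the last by 0.25 FPKM. In dek4-2 the count below was 5 of 9, against 12.1% of all genes, with HRS1 added to the same 4 genes. Under median-of-ratios scaling of the libraries the dek4-2 count was 2 of 9, NRT1.1 and HRS1, against 7.14% of all genes. The dd-2 count stayed at 4 of 9 under that scaling, against 25.7% of all genes. NRT1.1 left the dd-2 genes without organelle genes, and also with library trends with length and GC content removed. NIA1 left the dek4-2 genes with those trends removed. In dek3-2 none of the 9 was separate from Col-0 in either direction, against 31.1% of all genes.

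Setting dd-2 against each single mutant asks what loss of the other DEK gene adds. Against dek3-2, where 0.0263% of all genes were called, none of the 9 was called by limma and 2 had an unadjusted p below 0.05, against 10.6% of all genes. They were NIR1, with a difference of -0.39 (SE 0.089, adjusted p = 0.229 by limma), and NIA1, with -0.35 (SE 0.149, adjusted p = 0.465). Against dek4-2, where 0.0421% of all genes were called, none was called and HRS1 alone had such a p, against 12.4% of all genes. For the interaction, where 0.0158% of all genes were called, HRS1 was again the one gene with such a p, against 3.64% of all genes.

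NRT1.1, a dual-affinity nitrate transporter that also senses nitrate, lies on chromosome 1 at 4105233 to 4109545 and was the most abundant nitrate transporter by mean level. It stood at 136 and 135 FPKM in Col-0, 114 and 138 FPKM in dek3-2, 114 and 122 FPKM in dek4-2, and 121 and 135 FPKM in dd-2. Both dek4-2 libraries were below both Col-0 libraries, at a difference of -0.20 (SE 0.103, adjusted p = 1 by limma). The difference was -0.11 in dek3-2 and -0.09 in dd-2, where the second library reached 99.8% of its Col-0 counterpart.

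NRT2.1, the main high-affinity uptake transporter, lies on chromosome 1 at 2524076 to 2526164. It stood at 0.55 and 0.76 FPKM in Col-0, 0.41 and 0.33 FPKM in dek3-2, 0.34 and 0.48 FPKM in dek4-2, and 0.58 and 0.62 FPKM in dd-2. Both single mutants were below both Col-0 libraries, whereas both dd-2 libraries were above those of the single mutants and within the Col-0 range. These levels amount to about 19.1 to 50.6 fragments per library, estimated from the step size, so that counting error alone was 22.9% at the lowest level. Without the level filter, over 31268 genes, the interaction of the mutations was 0.46 on the log2 scale (SE 0.168, unadjusted p = 0.0261, adjusted p = 0.991 by limma). NRT2.2, the neighbouring and similar high-affinity gene, stood at 0.15 to 0.51 FPKM over the 8 libraries.

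NRT3.1, the small partner protein that NRT2.1 needs for transport, lies on chromosome 5 at 20436180 to 20437726. Its transcript was far more abundant per length than that of NRT2.1. It stood at 24.1 and 33.0 FPKM in Col-0, 27.8 and 40.6 FPKM in dek3-2, 23.0 and 25.6 FPKM in dek4-2, and 26.6 and 30.9 FPKM in dd-2. In every genotype the libraries numbered 2 were higher, and every mutant overlapped Col-0. The differences from Col-0 were 0.25, -0.21 and 0.02 (SE 0.201 each), the widest error among the 9 tested genes.

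UPM1, the methyltransferase of the committed step towards siroheme, the cofactor of nitrite reductase, lies on chromosome 5 at 16366353 to 16369099. A gene annotated on the opposite strand overlaps it, and whether the counting used strand is not given in the sources used here. Its level was 62.8 and 74.4 FPKM in Col-0, 68.5 and 81.5 FPKM in dek3-2, 62.8 and 69.1 FPKM in dek4-2, and 63.9 and 69.6 FPKM in dd-2. All genotypes overlapped, with differences of 0.13, -0.05 and -0.03 from Col-0 (SE 0.114 each).

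G6PD3, a plastid glucose-6-phosphate dehydrogenase that yields NADPH, is given in the tables in a locus on chromosome 1 at 8609445 to 8614277 that holds 2 genes, the other on the opposite strand. Its level was 8.52 and 10.9 FPKM in Col-0, 8.27 and 11.7 FPKM in dek3-2, 7.78 and 8.75 FPKM in dek4-2, and 8.48 and 10.02 FPKM in dd-2. All mutants overlapped Col-0, and the differences were 0.03, -0.20 and -0.06 (SE 0.175 each).

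LBD37, a repressor of nitrogen-response and anthocyanin genes, lies on chromosome 5 at 26904289 to 26906026, on the minus strand. It stood at 77.3 and 79.2 FPKM in Col-0, 74.2 and 81.1 FPKM in dek3-2, 77.7 and 67.7 FPKM in dek4-2, and 85.8 and 78.3 FPKM in dd-2. All genotypes overlapped Col-0, with differences of -0.01, -0.11 and 0.07 (SE 0.091 each).

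HRS1, a nitrate-induced repressor of the NIGT1 family that acts in phosphate and nitrate signalling of roots, lies on chromosome 1 at 4556892 to 4558708, on the plus strand. It stood at 11.7 and 13.3 FPKM in Col-0, 12.5 and 11.7 FPKM in dek3-2, 9.08 and 8.52 FPKM in dek4-2, and 15.9 and 11.4 FPKM in dd-2. The dek4-2 libraries were the lowest of all 8, and the first dd-2 library was the highest. The dek4-2 mean was 70.6% of the Col-0 mean, a log2 difference of -0.46 (SE 0.145, unadjusted p = 0.013, adjusted p = 1 by limma). Between dd-2 and dek4-2 the difference was 0.57 (SE 0.145, unadjusted p = 0.00422, adjusted p = 0.28 by limma), and the interaction was 0.60 (SE 0.204, unadjusted p = 0.018, adjusted p = 1). The dd-2 libraries lay apart, and without the first of them the difference between dd-2 and dek4-2 was 0.35.

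**Figure D3:**
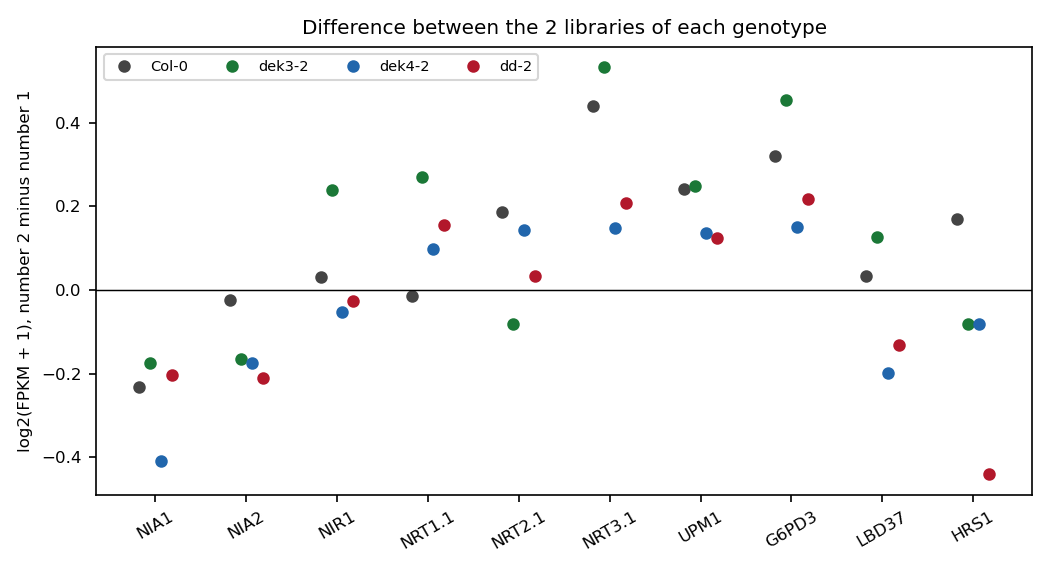
Difference in log2(FPKM + 1) between the library numbered 2 and the library numbered 1 of the same genotype (vertical axis) for each nitrate gene (horizontal axis), 1 point per genotype. All 4 points lay below 0 for NIA1 and NIA2 and above 0 for NRT3.1, UPM1 and G6PD3.

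The libraries numbered 1 and 2 differed in a way that crossed the genotypes. NIA1 and NIA2 were lower in the library numbered 2 in 4 of 4 genotypes, and NRT3.1, UPM1 and G6PD3 were higher in it in 4 of 4. Altogether 5 of the 9 tested genes had 1 sign in all 4 genotypes, against 20.9% of all genes, and the chloroplast share split along the same number. What the numbers stand for is not given by the labels. The spread between libraries of a genotype was taken as a pooled SD of log2(FPKM + 1). It was larger than the SD of the 4 genotype means for NIA2, NRT1.1, NRT3.1, UPM1, G6PD3 and LBD37. A mean of 2 libraries varies less than a single library, so the order of these SDs does not tell whether genotypes differed. For NIA1 the SD within genotypes was 0.191 and that of the genotype means 0.218. For NIR1 these were 0.0876 and 0.166, and for HRS1 0.172 and 0.248.

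Across the 8 libraries the genes moved in a few sets, described here with no test because the points share genotype and library number. Pearson's r of log2(FPKM + 1) was 0.95 between NRT3.1 and UPM1, 0.94 between NRT3.1 and G6PD3 and 0.91 between UPM1 and G6PD3. For NRT1.1 it was 0.79 with G6PD3, 0.61 with NRT3.1 and 0.53 with UPM1. It was 0.89 between NIA1 and NIA2, 0.60 between NIA1 and NIR1 and 0.76 between LBD37 and HRS1. Outside the nitrogen genes, among 11191 genes that averaged 10 FPKM or more, the profiles most like that of NIA1 belonged to AT5G61220 (r = 0.971), EARLI1 (r = 0.963), AT1G04420 (r = 0.957), OEP6, locus AT3G63160 (r = 0.954) and AT1G22700 (r = 0.952). EARLI1, a lipid-transfer-like cell wall protein, stood at 365 and 333 FPKM in Col-0, 320 and 264 FPKM in dek3-2, 257 and 187 FPKM in dek4-2, and 198 and 173 FPKM in dd-2. As with NIA1, its dd-2 libraries were below both Col-0 libraries and its library numbered 2 was the lower in each genotype. EARLI1 was picked by its likeness to NIA1 over these same libraries, so this is no further result.

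Around the 10 genes, 69 genes of nitrate and ammonium transport, ammonium assimilation, reductant supply, cofactor synthesis and nitrate signalling were listed, and 62 of them passed the level filter. None of the 62 was called by limma in dek3-2 or dek4-2, and 4 of them in dek3-2 and 2 in dek4-2 had an unadjusted p below 0.05, against 3.44% and 1.97% of all genes. In dd-2, 1 was called higher, against 0.142% of all genes, and none lower, while 12 had an unadjusted p below 0.05 with a higher level and 9 with a lower level. For comparison, 12.7% of all genes were higher and 5.85% were lower at that p in dd-2. The median difference over the 62 genes in dd-2 was 0.04, beside 0.08 over all genes.

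The called gene was NRT1.5 (AT1G32450, NPF7.3 in the tables), which loads nitrate into the root xylem, on chromosome 1 at 11715150 to 11719970. It stood at 11.6 and 10.3 FPKM in Col-0, 14.2 and 12.3 FPKM in dek3-2, 13.7 and 12.5 FPKM in dek4-2, and 20.1 and 18.9 FPKM in dd-2. Both dd-2 libraries were above all 6 others, and both single mutants were above Col-0. The difference was 0.78 in dd-2 (SE 0.106, 95% interval 0.53 to 1.02, adjusted p = 0.0425 by limma), 0.25 in dek3-2 and 0.24 in dek4-2 (adjusted p = 1 each). Leaving out any 1 of the 8 libraries ended the call, with adjusted p between 0.0524 and 0.243 and a difference between 0.70 and 0.86. It also ended under median-of-ratios scaling (adjusted p = 0.0581 by limma), with no level filter (0.0824) and with Col-0 and dd-2 fitted alone (0.0869). The call was lost as well without variance trend and robust estimation (0.0707). A gene on the other strand overlaps the annotated NRT1.5.

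**Figure D4:**
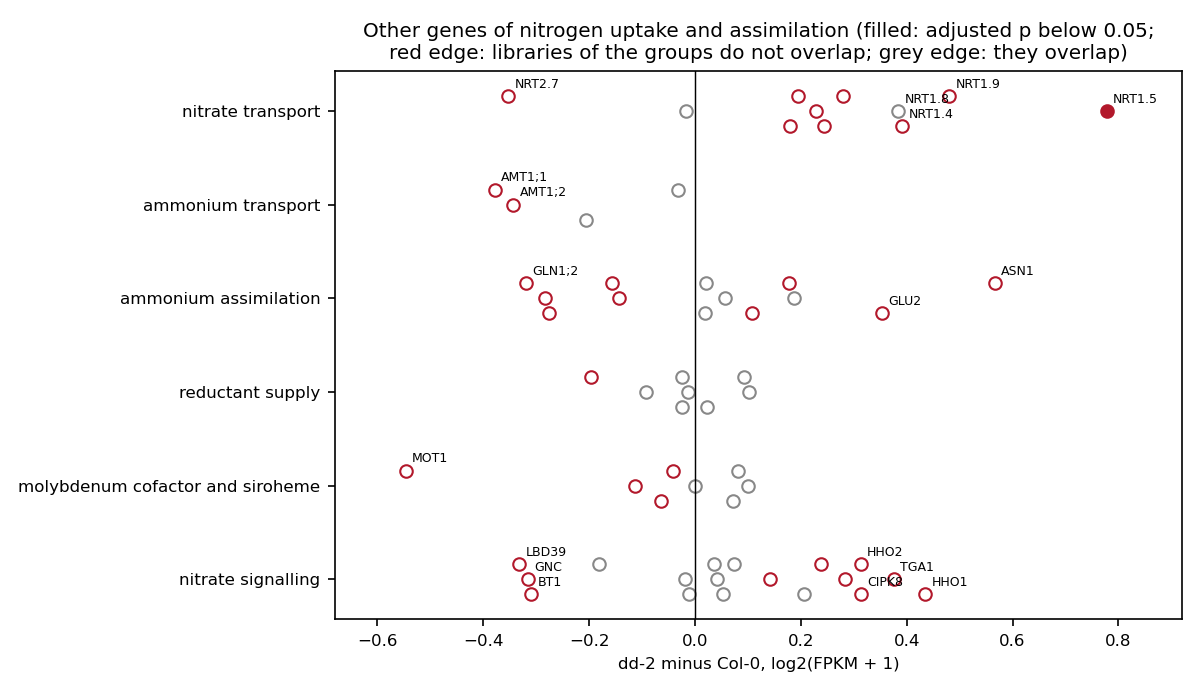
Difference between dd-2 and Col-0 in log2(FPKM + 1) (horizontal axis) for the 62 listed genes that passed the level filter, grouped by role (vertical axis). The filled point is the 1 gene with an adjusted p below 0.05, NRT1.5. Red edges mark genes whose dd-2 libraries do not overlap the Col-0 libraries, grey edges genes whose libraries overlap, and names are given beyond a difference of 0.3.

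Of the 11 tested nitrate transporters in these lists, which do not include NRT1.1, 2 had a difference below 0 in dd-2, against 34% of all genes. At an unadjusted p below 0.05, 4 of them were higher, against 12.7% of all genes, and 1 was lower, against 5.85%. Their median was 0.24, beside 0.08 over all genes. Of 4 ammonium transporters, 4 had a difference below 0, against the same 34%, and the median was -0.27. AMT1;1, a high-affinity ammonium transporter of roots, stood at 131 and 122 FPKM in Col-0 against 92.4 and 102 FPKM in dd-2. The groups did not overlap. Its difference was -0.38 (adjusted p = 0.119 by limma) and it was not called.

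Of 13 genes that assimilate ammonium, 2 were higher in dd-2 at an unadjusted p below 0.05, against 12.7% of all genes. At that p, 3 were lower, against 5.85%. The higher were GLU2 and ASN1, the lower GLN2, GLN1;2 and ASN3, and none was called by limma. GLN2, the plastid glutamine synthetase, stood at 1535 and 1382 FPKM in Col-0 and 1223 and 1170 FPKM in dd-2, a difference of -0.28 (adjusted p = 0.187 by limma). GLN1;2, a cytosolic glutamine synthetase, differed by -0.32 (adjusted p = 0.19) and GLU1, the leaf ferredoxin-dependent glutamate synthase, by -0.16 (adjusted p = 0.335). ASN1, an asparagine synthetase induced by darkness and low sugar, stood at 30.9 and 45.7 FPKM in Col-0 and 53.8 and 58.5 FPKM in dd-2, with 25.8 and 31.1 FPKM in dek3-2. Its dd-2 libraries were the highest of all 8, at a difference of 0.57 from Col-0 (adjusted p = 0.208), while ASN2 differed by -0.14 (adjusted p = 0.425).

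Of 8 genes that supply reductant, none had an unadjusted p below 0.05 in dd-2, against 18.6% of all genes, and their differences ranged from -0.20 to 0.10. RFNR1, the root-type ferredoxin reductase, differed by -0.20, G6PD2 by 0.09 and PGD3, a plastid 6-phosphogluconate dehydrogenase, by -0.09. Of 8 genes for the molybdenum cofactor and siroheme, SIRB, the ferrochelatase that completes siroheme, differed by -0.06 and CNX2, which starts the molybdenum cofactor, by 0.10. The 1 gene of this list with an unadjusted p below 0.05 in dd-2 was the molybdate transporter MOT1, named after its value was seen, at 9.86 and 8.10 FPKM in Col-0 and 5.93 and 5.69 FPKM in dd-2 (difference -0.55, adjusted p = 0.108 by limma).

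Among 18 tested genes of nitrate signalling, 6 had a higher level in dd-2 at an unadjusted p below 0.05, against 12.7% of all genes. At that p, 2 had a lower level, against 5.85%. The higher were TGA1, TGA4, CIPK8, CIPK23, HHO1 and HHO2, the lower LBD39 and GNC, and none was called by limma. TGA1 differed by 0.38 (adjusted p = 0.112 by limma) and GNC by -0.31 (adjusted p = 0.117), both named after their values were seen. NLP7, the transcription factor at the head of the primary nitrate response, had close levels, at 30.3 and 30.7 FPKM in Col-0 and 31.2 and 29.1 FPKM in dd-2 (difference -0.02). The relatives of HRS1 differed by 0.44 for HHO1 (adjusted p = 0.258 by limma), 0.31 for HHO2 (adjusted p = 0.16) and 0.21 for HHO3 (adjusted p = 0.412). Of the relatives of LBD37, LBD38 differed by -0.01 and LBD39 by -0.33 (adjusted p = 0.154) in dd-2. In dek4-2, LBD38 stood at 55.2 and 46.7 FPKM against 67.0 and 59.7 FPKM in Col-0, a difference of -0.31 (unadjusted p = 0.0132, adjusted p = 1). BT2, a repressor of high-affinity uptake genes, differed by -0.30 for dek3-2, -0.20 for dek4-2 and -0.18 for dd-2.

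Whole seedlings mix organs, and in bulk RNA fewer cells of a type and less RNA per cell cannot be told apart. The summed level of 8 root markers was 990 and 936 FPKM in Col-0 and 1515.5 and 1279 FPKM in dd-2, with 1017 to 1103.5 FPKM in the single mutants. Without PYK10, the most abundant of them, the sum of the other 7 was 76.9 and 65.2 FPKM in Col-0 and 76.9 and 81.8 FPKM in dd-2. Of the 8, 3 were above both Col-0 libraries in dd-2, against 38% of all genes, and none below, against 15.3%. The summed level of 8 green shoot markers was 30620 and 26421 FPKM in Col-0 and 22772 and 22057 FPKM in dd-2, with 4 of the 8 below both Col-0 libraries and 2 above, beside the same shares of all genes. The levels of 9 clock genes depend on the hour of collection. Their sum, weighted to the most abundant ELF4, TOC1 and LUX, was 307 to 313 FPKM in Col-0 and 321 to 329 FPKM in dd-2. Of the 9, 5 were above both Col-0 libraries in dd-2 and none below, again beside 38% and 15.3% of all genes tested. Only 7 of the 9 passed the level filter behind those shares, and PRR9, among the 5, did not. NIA1, NIA2 and NIR1 are expressed in both roots and shoots and vary through the day, and the part of organ proportions or of collection time in their levels was not tested. No marker gene that passed the level filter was called by limma in any mutant.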

How the data were processed

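The authors deposited 1 table of FPKM per library for 8 libraries of whole seedlings, with 33557 loci each. The submitters' processing notes name HISAT2, featureCounts, edgeR and the genome build TAIR10, without versions, and how FPKM was computed and whether strand was used are not given in the sources used here. Low values were whole multiples of 1 fragment within 0.15 in 100% of those checked, which gave relative depth, and intervals on them cover counting error only. After a filter at a mean of 1 FPKM, a pseudocount of 1 was added, log2 was taken, and limma 3.58.1 (R 4.3.3) was run with variance trend and robust estimation. The alternative without variance trend left out robust estimation as well. Strand, exon counts, upstream windows and overlapping genes came from the RefSeq annotation of TAIR10.1. Figures were drawn in Python 3.11.15 with matplotlib 3.10.9. The procedure was tested on simulated data.

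The 10 genes, the pathway lists and the marker lists were chosen with earlier results of these data known. Of 69 pathway genes 68 were found, and NRT3.2 was not analysed here. All 10 genes, a fixed set of partner genes, every pathway gene called and the 5 profiles most like NIA1 were named. Other pathway genes, such as MOT1, were named after their values were seen. Alternatives were median-of-ratios scaling, no filter, a pseudocount of 0.1, only the groups compared, a replicate block, no organelle genes, no variance trend, removal of library trends with length and GC content, and each library left out. Their use on pathway genes, on counts over all genes, on NRT1.5, on further comparisons of HRS1 and NIR1 and on the counts of separate libraries was added after seeing the data.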

Additional observations from a re-analysis of the deposited data

Results flagged for a closer look

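NRT2.1 was flagged because its libraries differed in opposite directions, without overlap, when the same DEK gene was lost in different backgrounds. Both dek4-2 libraries, at 0.34 and 0.48 FPKM, were below both Col-0 libraries, at 0.55 and 0.76 FPKM, whereas both dd-2 libraries, at 0.58 and 0.62 FPKM, were above both dek3-2 libraries, at 0.41 and 0.33 FPKM. Seen from loss of DEK3, dek3-2 was below Col-0 and dd-2 was above dek4-2. This is the same interaction of the same libraries and not a further result. The interaction was 0.464 on the log2 scale in a fit without the level filter (SE 0.168, unadjusted p = 0.0261, adjusted p = 0.991 by limma), so the difference did not pass the adjusted threshold. About 19.1 to 50.6 fragments per library stand behind these levels.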

How the results depend on the processing

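No nitrate gene was called in any comparison under any alternative, with 1 exception. With a replicate block the count in dd-2 against Col-0 was 1, NIA1 (adjusted p = 0.0347 by limma), whose adjusted p over its alternatives ranged to 0.492. Deviations of libraries with the same number had correlations of -0.065 to 0.23 between genotypes, so the numbers were not taken as a pairing. The block also raised the calls over all genes in dd-2 from 48 to 305. Pathway genes called in dd-2 were 2 with the block, NRT1.4 and NRT1.5, and 0 under median-of-ratios scaling, without filter, with only the groups compared, without variance trend, and with each library left out (0 to 0). Over all genes in dd-2 the calls were 26 without filter, 16 with only the groups compared, 23 without variance trend and 10 to 35 with 1 library left out, where a lone library was taken to vary like the others. With 1 library left out they were 7 to 16 in dek3-2 and 3 to 10 in dek4-2. The split of the 48 into 27 higher and 21 lower became 19 and 27 under median-of-ratios scaling, and 37 and 15 without organelle genes. That scaling moved the median of all genes by -0.11 between dd-2 and dek4-2, and the dek4-2 count of genes with both libraries below Col-0 from 5 to 2. Directions turned under that scaling for G6PD3 in dek3-2 (-0.0012) and for NRT3.1 (-0.061) and LBD37 (-0.020) in dd-2, and for LBD37 in dd-2 with library trends removed (-0.017). The cause was not tested. Leaving out 1 library gave ranges across 0 for small differences. In dek3-2 these were -0.13 to 0.033 for NIA2, -0.029 to 0.21 for NIR1, -0.25 to 0.024 for NRT1.1, -0.021 to 0.51 for NRT3.1, -0.20 to 0.25 for G6PD3, -0.076 to 0.050 for LBD37 and -0.12 to 0.048 for HRS1. In dek4-2 they were -0.43 to 0.014 for NRT3.1 and -0.17 to 0.068 for UPM1. In dd-2 they were -0.20 to 0.24 for NRT3.1, -0.16 to 0.086 for UPM1, -0.22 to 0.10 for G6PD3 and -0.11 to 0.33 for HRS1. NIA1 stayed between -0.62 and -0.39 and NIR1 between -0.31 and -0.28 in dd-2. Counting error at the lowest level was largest for NRT2.1 among the 10 genes, at 22.9%. The others had at least 300.3 fragments in every library, and their largest such error was 5.77%, for HRS1.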
